A study of Mus musculus with 8 samples.

Results

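The genes described here are components of the striated muscle sarcomere and of its calcium handling, measured by mRNA-seq in liver ECs. They were given as a list of 41 symbols, chosen with the difference between LRP1 eKO and WT libraries already known, and 40 of them matched a row among the 22520 genes of the table. Acta1, the skeletal muscle alpha actin gene, was the remaining symbol and is not analysed here. Because the contrast between genotypes was known when the list was made, differences of the members are given as a description, without a test.

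In skeletal muscle, the sarcomere slides thick filaments of myosin along thin filaments of actin, and troponin on the thin filament gates this movement when calcium is released from the sarcoplasmic reticulum. The ryanodine receptor releases that calcium, calsequestrin stores it and the SERCA pump returns it. Muscle exchanges its myosins, light chains, troponins and acetylcholine receptor subunits as it matures, so that embryonic, adult fast and slow isoforms are encoded by separate genes. The liver has no skeletal muscle of its own.

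The table covered 4 libraries of WT mice and 4 libraries of LRP1 eKO mice, all C57BL/6 at postnatal day 14. Both groups carried floxed Lrp1 alleles (LRP1 f/f). LRP1 eKO mice also carried Cdh5-CreER, a tamoxifen-dependent Cre driven by the promoter of VE-cadherin, while their WT littermates lacked it, so that effects of Cre and of Lrp1 deletion cannot be told apart. When Cre was induced is not given in the sources used here. The cells were selected from liver with beads coated with an antibody to PECAM-1, an endothelial surface protein. The labels give no number of mice per library and do not say whether the numbered libraries were separate animals, so the spread between libraries may in part be technical. Values are the quantile-normalized signal that the authors deposited. The unit before that step is not stated and the depth is unknown. The lowest signals above 0 were smaller for genes with longer exons (Spearman rho -0.596 across 3154 genes, which are not independent replicates), as they are in a measure per length.

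Lrp1 itself was at 65.5 ± 13.3 in WT against 4.41 ± 1.65 in LRP1 eKO libraries (SD, n = 4), with 6.74% of the WT mean left (limma adjusted p = 2.8e-06). The markers of the labelled cell type were low in both groups. Pecam1 was at 2.09 ± 0.416 in WT against 3.02 ± 0.911 in LRP1 eKO libraries (SD, n = 4), and 10 endothelial genes summed to between 38.1 and 43.9 in WT and between 52.2 and 70.5 in LRP1 eKO libraries. Of mesothelial genes, which mark the lining of the liver surface, 8 summed to between 2321 and 2798 in WT and between 2996 and 3317 in LRP1 eKO libraries, and Msln alone was at 1019.9 ± 125 (SD, n = 4) in WT. On this scale the mesothelial genes thus stood well above the endothelial genes. WT replicate 4 stood apart from the other WT libraries. It was the library farthest from the median of its group for 61.7% of tested genes, and the medians of the members by role and isoform class are given with and without it.

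All 40 members had a lower mean signal in LRP1 eKO than in WT libraries. The LRP1 eKO mean of a member was 24.0% of its WT mean at the median, and members ranged from 13.2% for Chrng to 73.2% for Myoz1. Among the 17111 genes of the table with a signal above 0 in WT, the median left was 97.7%. Without WT replicate 4, the median of the members was 26.3%. In bulk samples such as these, fewer cells of a type and less RNA per cell cannot be told apart.

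**Figure D1:**
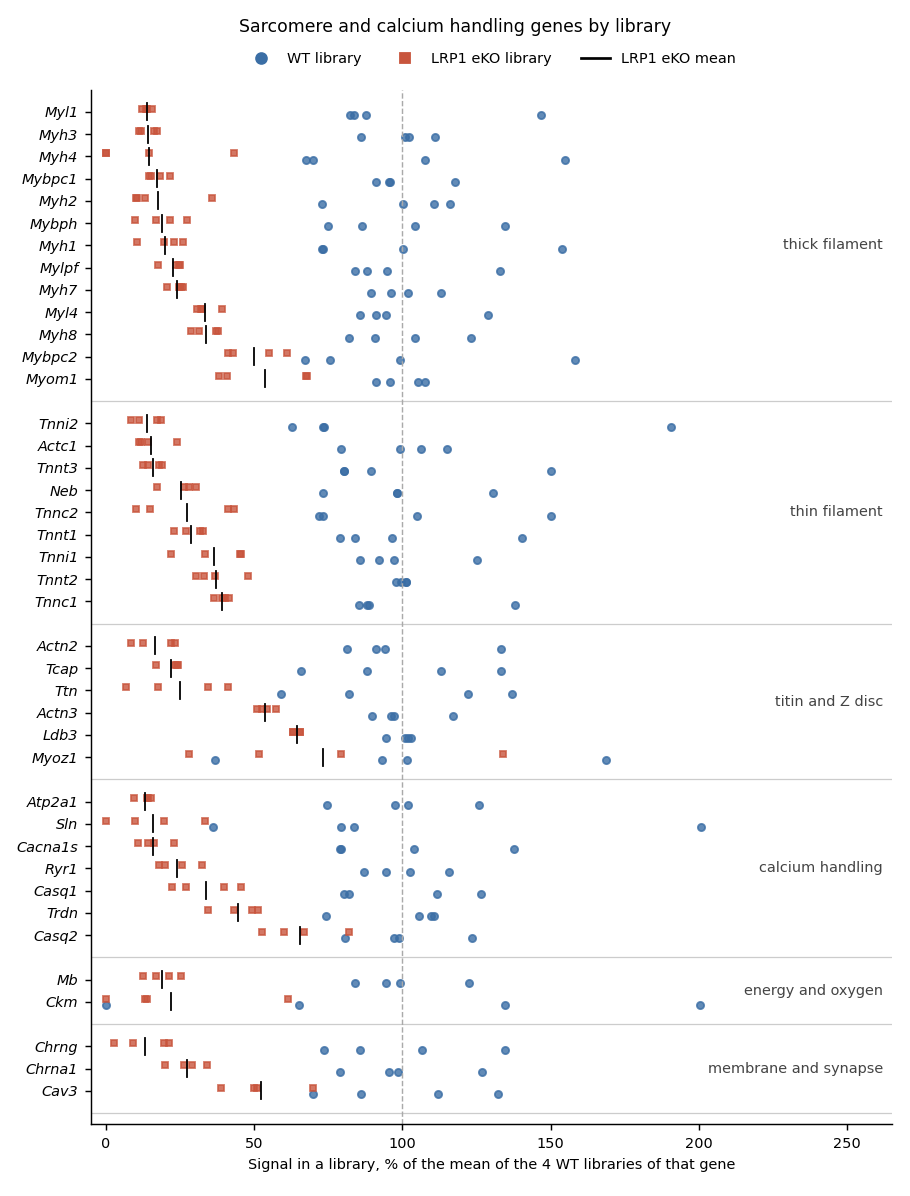
Signal of each of the 40 members in each library, as a percent of the mean of the 4 WT libraries of that gene (x axis), grouped by role, with WT libraries as circles, LRP1 eKO libraries as squares and the LRP1 eKO mean as a black line. The LRP1 eKO means lie between 13.2% and 73.2%, and 37 of the 40 genes have every LRP1 eKO library below every WT library.

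The sum of the members was similar among 3 of the WT libraries, with 120.2 in replicate 1, 117 in replicate 2 and 119.8 in replicate 3, while it was 167 in replicate 4. In LRP1 eKO libraries the sum was 39.8, 41.6, 40.0 and 40.9 in replicates 1 to 4. The LRP1 eKO sums thus lay close together and far below every WT library. The mean sum was 131 ± 23.8 in WT against 40.6 ± 0.834 in LRP1 eKO libraries (SD, n = 4), with 31.0% left, or 34.1% without WT replicate 4.

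In 37 of the 40 members every LRP1 eKO library was below every WT library, and 13.9% of all genes of the table and 22.5% of the tested genes showed this pattern. The remaining 3 were Myoz1, Casq2 and Ckm, whose groups overlapped. The LRP1 eKO mean was under 50% of the WT mean for 33 members, against 9.39% of the genes above 0 in WT and 1.58% of the tested genes. It was under 25% for 21 members, and the share of all genes at that cut was not counted. In all, 16 members reached a signal of 1 in 4 or more of the 8 libraries and entered the fit across 11391 genes. Of these, 6 were below 1 in every LRP1 eKO library and so entered through the WT libraries alone. At an adjusted p below 0.05 and a 2-fold change, 12 of the 16 were lower, where 0.790% of tested genes were. Nothing is read from these counts, since the same contrast was known when the list was made.

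Many members were at low levels in both groups, and 20 of the 40 had a mean WT signal below 1. The share left was 22.1% at the median for the 13 members with a WT mean below 0.5, 27.3% for the 13 members between 0.5 and 2, and 25.7% for the 14 members at 2 or above. All genes of the same 3 level classes had medians of 88.2%, 98.1% and 98.8%. In these classes 10, 11 and 12 members were under 50% of WT, where 26.9%, 6.44% and 1.5% of all genes were. Because log2(signal + 1) compresses low signals, the median difference of the members on that scale was -0.56, and -0.0095 for the genes tested.

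**Figure D2:**
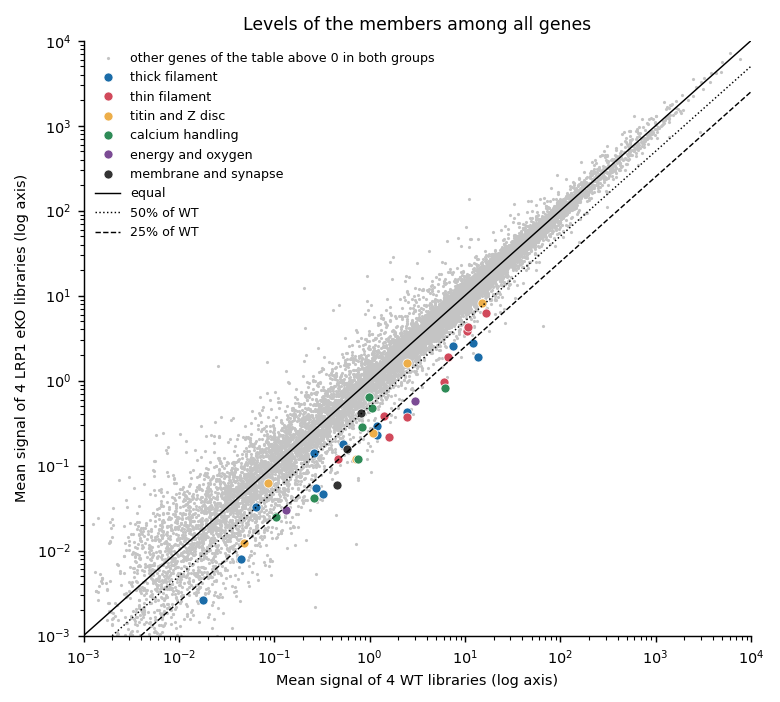
Mean signal of 4 LRP1 eKO libraries (y axis) against the mean of 4 WT libraries (x axis), both on log axes cut at 0.001, with the members coloured by role and the other genes above 0 in both groups in grey. Lines mark equal signals, 50% of WT and 25% of WT. Below the line at 25% lie 21 members, and the other genes below it were not counted.

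The stretch of 250 bases before the transcription start was examined for 32 of the members, in 38 windows of the RefSeq annotation on GRCm38.p6, since these genes were lower together. The other 8 members with a row had no window in the sequences used. Some windows lay partly in annotated exons, and a window of Mb and a window of Tnnt2 lay in them for all 250 bases. Overlapping windows of Mb, Tnni1 and Ldb3 held the same match to a motif below, so that it was counted again. The E-box CAGCTG, a core sequence that myogenic regulators are known to bind, stood in 17 of the 38 windows (15 genes), or 44.7%, and in 13% of 32841 windows of all genes. The broader E-box CANNTG, which includes CAGCTG and was searched on both strands, stood in 81.6% of the member windows and 66.2% of all windows. The CArG motif stood in 5 member windows (Actc1, both windows of Ldb3, Myh4 and Myom1), or 13.2%, against 1.47% of all windows. The MEF2 motif was found for Ttn alone, in 2.63% of member windows and 0.509% of all windows, and TATAAA was found in 10.5% and 7.59%. A match describes letters and is neither a binding site nor a cause. Shown are 4 windows that overlap no annotated exon, from a regulatory light chain, a receptor subunit, a membrane protein and titin, with the match to CAGCTG or, for Ttn, to the MEF2 motif in capitals.
Mylpf, chr7:127211358-127211607, plus strand: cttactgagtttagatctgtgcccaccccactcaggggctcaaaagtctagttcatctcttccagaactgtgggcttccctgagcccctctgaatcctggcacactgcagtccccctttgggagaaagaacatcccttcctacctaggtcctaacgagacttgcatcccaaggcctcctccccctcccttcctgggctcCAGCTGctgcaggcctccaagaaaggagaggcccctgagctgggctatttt
Chrna1, chr2:73580339-73580588, minus strand: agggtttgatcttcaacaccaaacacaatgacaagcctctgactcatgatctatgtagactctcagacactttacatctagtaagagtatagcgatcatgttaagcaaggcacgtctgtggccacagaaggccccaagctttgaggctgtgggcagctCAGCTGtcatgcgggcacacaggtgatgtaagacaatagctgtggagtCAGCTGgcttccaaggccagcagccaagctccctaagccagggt
Cav3, chr6:112459255-112459504, plus strand: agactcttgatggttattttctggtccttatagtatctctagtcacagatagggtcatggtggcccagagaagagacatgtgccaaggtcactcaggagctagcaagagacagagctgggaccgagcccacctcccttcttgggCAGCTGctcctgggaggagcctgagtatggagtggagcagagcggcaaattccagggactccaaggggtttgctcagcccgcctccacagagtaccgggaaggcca
Ttn, chr2:76982548-76982797, minus strand: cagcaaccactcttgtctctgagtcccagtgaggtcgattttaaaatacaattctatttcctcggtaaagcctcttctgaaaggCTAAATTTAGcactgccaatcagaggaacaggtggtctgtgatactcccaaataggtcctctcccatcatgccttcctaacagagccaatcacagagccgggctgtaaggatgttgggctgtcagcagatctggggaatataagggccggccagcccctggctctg
The CAGCTG match nearest the start lay 51 bases before it in Mylpf, 44 bases before it in Chrna1 and 106 bases before it in Cav3. The windows of Myh1, Myh2, Myh3, Myh8, Tnnc1 and Actc1, among others, held no CAGCTG, and their levels were lower in LRP1 eKO libraries as well.

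The 13 thick filament members had a median of 19.8% left, or 23.8% without WT replicate 4. Myl1, the essential light chain of adult fast fibres (chromosome 1, 66924295 to 66945404), was at 11.5, 11.3, 12.04 and 20.1 in WT and at 1.67, 1.88, 1.89 and 2.14 in LRP1 eKO replicates 1 to 4. The 4 LRP1 eKO libraries lay close together and far below the lowest WT library, and WT replicate 4 was well above the rest. The means were 13.7 ± 4.27 and 1.90 ± 0.190 (SD, n = 4), with 13.8% left and a difference of -2.31 on the log2(signal + 1) scale. Without WT replicate 4, 16.3% was left.

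Mylpf, the fast regulatory light chain (chromosome 7, 127208890 to 127214298), was at 10.2, 10.7, 11.5 and 16.1 in WT and at 2.87, 3.04, 2.12 and 3.00 in LRP1 eKO replicates 1 to 4, with 22.8% left. Myl4, a light chain of embryonic muscle that adult atria also use (chromosome 11, 104550663 to 104595753), was at 7.14, 6.50, 6.89 and 9.76 in WT and at 2.46, 2.44, 2.32 and 2.96 in LRP1 eKO replicates 1 to 4, with 33.6% left. The groups did not overlap for either light chain, and WT replicate 4 was again the highest library.

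Of the 6 sarcomeric myosin heavy chain genes, 5 lie next to each other on chromosome 11, in the order Myh3, Myh2, Myh1, Myh4 and Myh8 from 67078300 to 67308634. Myh7, the slow and cardiac beta heavy chain on chromosome 14, had the highest signal of the 6. It was at 1.37, 1.23, 1.08 and 1.16 in WT and at 0.314, 0.299, 0.305 and 0.251 in LRP1 eKO replicates 1 to 4, with 24.1% left and no overlap. Embryonic Myh3 was at 0.359, 0.278, 0.326 and 0.331 in WT and at 0.0560, 0.0366, 0.0379 and 0.0527 in LRP1 eKO replicates 1 to 4, with 14.2% left. Perinatal Myh8 was at 0.483, 0.436, 0.553 and 0.655 in WT and at 0.152, 0.198, 0.200 and 0.166 in LRP1 eKO replicates 1 to 4, with 33.7% left. Neither gene had a library of one group within the range of the other.

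The 3 adult fast heavy chains had the lowest WT means of the family. Myh1, of type 2X fibres, had a mean of 0.273 ± 0.104 in WT against 0.0542 ± 0.0182 in LRP1 eKO libraries (SD, n = 4), with 19.8% left. Myh2, of type 2A fibres, had 17.5% left and Myh4, of type 2B fibres, 14.4%, and Myh4 was listed at 0 in LRP1 eKO replicates 1 and 4. Heavy chains share sequence, and between 4.76% (Myh3) and 30.5% (Myh1) of the 50-base stretches of these 5 transcripts also occur in another gene, mostly another heavy chain, so that reads could be split among them in counting.

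The other thick filament members link or space the myosin rods. Mybpc1, slow myosin binding protein C, was at 2.37, 2.37, 2.25 and 2.92 in WT and at 0.373, 0.535, 0.361 and 0.453 in LRP1 eKO replicates 1 to 4, with 17.4% left. Mybph, myosin binding protein H, had 18.9% left, although 43.9% of its stretches lie in the overlapping gene Adora1 or other genes. Less of a difference was seen for Mybpc2, the fast form (50.1% left), and for Myom1, the M-band protein myomesin (53.6% left), both at mean WT signals below 0.5. All of these genes had groups without overlap.

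The 9 thin filament members had a median of 27.4% left, or 32.8% without WT replicate 4. Actc1, the actin of the heart and of embryonic skeletal muscle (chromosome 2, 114047282 to 114053548), was at 2.43, 2.60, 1.94 and 2.82 in WT and at 0.352, 0.584, 0.277 and 0.290 in LRP1 eKO replicates 1 to 4, with 15.3% left. Neb, encoding nebulin, the ruler of the thin filament, was at 0.470 ± 0.110 in WT against 0.120 ± 0.0272 in LRP1 eKO libraries (SD, n = 4), with 25.5% left. The groups did not overlap in any of the 9 genes.

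Troponin T attaches the troponin complex to tropomyosin. Tnnt2, its cardiac and embryonic form (chromosome 1, 135836354 to 135852260), had the highest WT signal of all members, at 16.9, 16.4, 16.6 and 16.9 in WT and at 5.54, 7.99, 5.07 and 6.13 in LRP1 eKO replicates 1 to 4, with 37.1% left. The WT libraries differed by little, and WT replicate 4 did not stand apart for this gene. Tnnt3, the fast form, was at 5.42, 4.86, 4.86 and 9.10 in WT and at 1.09, 0.863, 0.767 and 1.14 in LRP1 eKO replicates 1 to 4, with 15.9% left. Tnnt1, the slow form, was at 5.56, 5.22, 6.39 and 9.28 in WT and at 1.51, 2.09, 2.17 and 1.79 in LRP1 eKO replicates 1 to 4, with 28.6% left. For both, every LRP1 eKO library was below the lowest WT library and WT replicate 4 was the highest.

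Troponin I inhibits the myosin ATPase in the absence of calcium. Slow Tnni1 was at 8.97, 10.2, 9.63 and 13.1 in WT and at 4.76, 2.29, 4.75 and 3.50 in LRP1 eKO replicates 1 to 4, with 36.5% left. Fast Tnni2 was at 1.16, 1.16, 0.997 and 3.02 in WT and at 0.177, 0.135, 0.272 and 0.294 in LRP1 eKO replicates 1 to 4, with 13.8% left, or 19.8% without WT replicate 4. Tnni1 and Tnnt2 are neighbours on chromosome 1, as are Tnni2 and Tnnt3 on chromosome 7.

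Troponin C binds the calcium. Tnnc1, the slow and cardiac form, was at 9.19, 9.53, 9.49 and 14.8 in WT and at 4.31, 4.22, 4.46 and 3.91 in LRP1 eKO replicates 1 to 4, with 39.3% left. Tnnc2, the fast form, was at 1.02, 1.04, 1.49 and 2.12 in WT and at 0.584, 0.211, 0.145 and 0.611 in LRP1 eKO replicates 1 to 4, with 27.4% left. The LRP1 eKO libraries of Tnnc2 differed among themselves by more than those of Tnnc1, and 47.9% of the stretches of Tnnc2 are shared with other genes, mainly the overlapping cell cycle gene Ube2c.

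The 6 members of titin and the Z disc varied among themselves, from 16.6% to 73.2% left with a median of 39.4%, or 42.0% without WT replicate 4. Actn3, the alpha-actinin of fast fibres, was at 14.6, 14.5, 13.5 and 17.6 in WT and at 7.91, 7.69, 8.62 and 8.16 in LRP1 eKO replicates 1 to 4, with 53.8% left. Ldb3, which encodes the Z disc protein ZASP, was at 2.52, 2.55, 2.50 and 2.34 in WT and at 1.56, 1.62, 1.57 and 1.62 in LRP1 eKO replicates 1 to 4, with 64.4% left. Both were lower in every LRP1 eKO library, but their differences were smaller than those of the light chains and troponins.

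Actn2, the alpha-actinin of all striated fibres, had 16.6% left, from 0.725 ± 0.166 in WT to 0.121 ± 0.0528 in LRP1 eKO libraries (SD, n = 4). Tcap, the telethonin that caps titin, had 22.1% left and Ttn, encoding titin itself, 25.04%. Myoz1, a calsarcin of fast fibres, was at 0.144, 0.0796, 0.0869 and 0.0314 in WT and at 0.115, 0.0677, 0.0441 and 0.0240 in LRP1 eKO replicates 1 to 4. Its groups overlapped.

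The 7 calcium handling members had a median of 23.9% left, or 23.7% without WT replicate 4. Atp2a1, encoding the fast SERCA pump (chromosome 7, 126445858 to 126463108), was at 6.02, 4.62, 6.30 and 7.79 in WT and at 0.594, 0.937, 0.888 and 0.860 in LRP1 eKO replicates 1 to 4. The highest LRP1 eKO library was far below the lowest WT library. This left 13.3% of the WT mean, a difference of -1.97 on the log2(signal + 1) scale. Of its 50-base stretches, 18.0% occur in another gene, mainly the overlapping Rabep2.

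Sln, encoding sarcolipin, an inhibitor of that pump, was at 0.639, 0.606, 0.275 and 1.53 in WT and at 0, 0.0760, 0.150 and 0.255 in LRP1 eKO replicates 1 to 4, with 15.8% left. Its groups came within a small distance of each other, and 23.7% was left without WT replicate 4. Ryr1, the ryanodine receptor of skeletal muscle, had 23.9% left and Cacna1s, the voltage sensor coupled to it, 15.9%, both from WT means below 0.5. Trdn, encoding triadin, which anchors calsequestrin to the ryanodine receptor, had 44.6% left and was lowest among WT libraries in replicate 4.

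The calsequestrins differed from each other. Casq1, the fast form, was at 0.936, 0.673, 0.686 and 1.06 in WT and at 0.226, 0.383, 0.335 and 0.187 in LRP1 eKO replicates 1 to 4, with 33.7% left and no overlap. Casq2, the slow and cardiac form, was at 0.974, 0.794, 1.22 and 0.957 in WT and at 0.520, 0.808, 0.659 and 0.591 in LRP1 eKO replicates 1 to 4, with 65.4% left. LRP1 eKO replicate 2 exceeded WT replicate 2 for Casq2, so that the groups overlapped.

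Of the members for energy and oxygen, Mb, encoding the oxygen store myoglobin, was at 2.84, 2.98, 2.53 and 3.68 in WT and at 0.381, 0.766, 0.641 and 0.509 in LRP1 eKO replicates 1 to 4, with 19.1% left. Ckm, muscle creatine kinase, which is abundant in adult fibres, was at only 0.0875, 0, 0.181 and 0.269 in WT and at 0.0825, 0.0177, 0.0185 and 0 in LRP1 eKO replicates 1 to 4. A library of each group was listed at 0 for Ckm and the groups overlapped, so that its 22.1% left is an uncertain value.

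The 3 members of the membrane and the neuromuscular synapse were all below a mean signal of 1. Chrng, the fetal gamma subunit of the acetylcholine receptor, was at 0.330, 0.385, 0.480 and 0.605 in WT and at 0.0884, 0.0414, 0.0125 and 0.0957 in LRP1 eKO replicates 1 to 4, and 13.2% was left. This was the lowest of the members, next to 13.3% for Atp2a1, but without WT replicate 4 Chrng had 14.9% left and Myh3 was lowest at 14.3%. Chrna1, the alpha subunit used at both ages, had 27.3% left, and Cav3, the caveolin of the muscle membrane, 52.4%. Chrne, the adult epsilon subunit and no member of the list, was listed at 0 in 2 of 4 WT and 3 of 4 LRP1 eKO libraries and reached 0.178 at most. In every WT library the fetal subunit was above the adult one on this scale.

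Embryonic and adult isoforms were both lower in LRP1 eKO libraries. The median left was 24.5% for the 6 developmental members, 19.8% for the 13 members of adult fast fibres and 32.6% for the 6 members of slow fibres. Without WT replicate 4 these medians were 26.3%, 24.2% and 36.5%. The developmental share of the myosin heavy chains, that is Myh3 and Myh8 over the sum of the 6 genes, was 35.6% ± 3.56 in WT against 38.7% ± 1.81 in LRP1 eKO libraries (SD, n = 4). The shares ranged from 31.5% to 39.6% in WT and from 37.4% to 41.4% in LRP1 eKO libraries and overlapped, while the sum of the 6 genes was 2.40 ± 0.200 and 0.582 ± 0.0466 (SD, n = 4). The 2 developmental genes did not move alike within that share. Myh3 made up 13.5% ± 1.27 of the heavy chains in WT against 8.01% ± 2.32 in LRP1 eKO libraries, and Myh8 22.1% ± 3.16 and 30.7% ± 2.27 (SD, n = 4). With Myh3 alone counted as developmental and Myh8 left out, the share was therefore 17.3% in WT against 11.5% in LRP1 eKO libraries, a difference in the other direction.

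**Figure D3:**
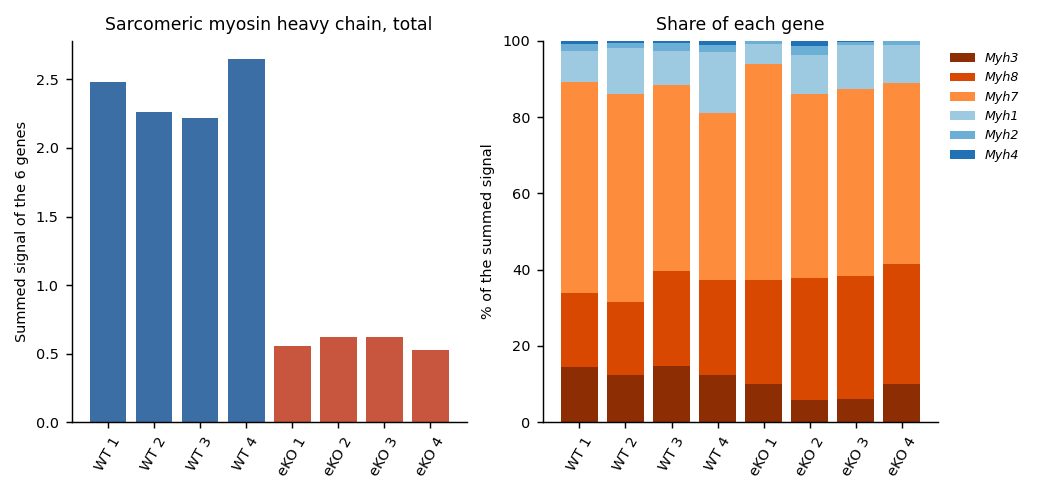
Left, the summed signal of Myh1, Myh2, Myh3, Myh4, Myh7 and Myh8 in each library (bars from 0). Right, the percent of that sum from each gene, where Myh3 and Myh8, the developmental genes, make up between 31.5% and 41.4% in every library and Myh7 makes up 50.6% in WT and 50.3% in LRP1 eKO libraries on average.

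Ratios taken within a library cancel what all genes of that library share. Myl4 over Myl1, the embryonic over the adult fast light chain, ranged from 0.485 to 0.623 in WT and from 1.22 to 1.47 in LRP1 eKO libraries. Tnnt2 over Tnnt3, the embryonic and cardiac over the fast troponin T, ranged from 1.86 to 3.42 and from 5.07 to 9.26. Slow over fast was higher in LRP1 eKO libraries without overlap for Tnnt1 over Tnnt3 (1.02 to 1.31 against 1.39 to 2.83), Tnni1 over Tnni2 (4.34 to 9.66 against 11.9 to 26.9) and Casq2 over Casq1 (0.903 to 1.77 against 1.97 to 3.15). For Tnnc1 over Tnnc2 the groups overlapped, at 6.39 to 9.19 in WT and 6.41 to 30.8 in LRP1 eKO libraries. In all of these pairs the fast form had the smaller percent left. Myosin binding protein C, not taken as a ratio, lay in the other direction, with 17.4% left for slow Mybpc1 and 50.1% for fast Mybpc2. The fast members Actn3 (53.8%) and Myoz1 (73.2%) were also among those with the most left, so the pairs do not stand for every fast member. Among the heavy chains, the perinatal over the embryonic form, Myh8 over Myh3, was at 1.35 to 1.98 in WT and 2.72 to 5.39 in LRP1 eKO libraries, and the slow over the embryonic form, Myh7 over Myh3, was at 3.317 to 4.43 and 4.76 to 8.16. Chrng over Chrna1, the fetal over the common receptor subunit, lay in the other direction, at 0.673 to 0.865 in WT and 0.0748 to 0.768 in LRP1 eKO libraries, with overlap. The pairs came from the same list and contrast, and no test is given.

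**Figure D4:**
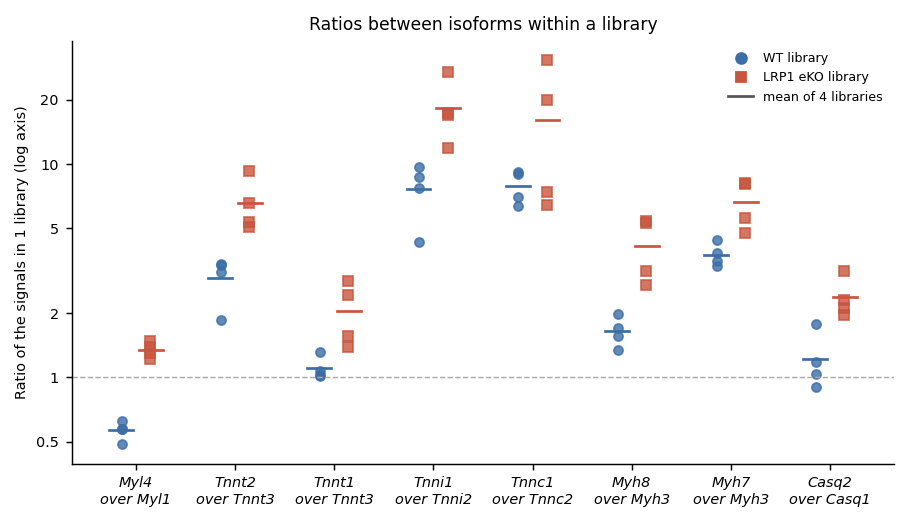
Ratio of the signals of 2 isoforms in each library (log axis, Chrng over Chrna1 not shown), with WT libraries as circles, LRP1 eKO libraries as squares and the mean of 4 libraries as a line. In every pair shown except Tnnc1 over Tnnc2, the 4 LRP1 eKO libraries lie above the 4 WT libraries.

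Deviations of the members within a genotype were compared as a further description. The median pairwise correlation of deviations from the genotype mean over the 8 libraries was 0.442 among the 16 tested members and 0.0055 among all tested genes. Without WT replicate 4 it was 0.0097 among the members and 0.010 among all genes. The correlation among the members thus rested on that library. WT replicate 4 was the highest WT library for 30 of the 40 members. The 10 other genes whose deviations were most like the mean deviation of the members were Trnau1ap, Atp5l, Mtbp, Atp5o, Psmd4, Tut1, Gsta4, Psma3, Pamr1 and Mrpl34, with Pearson r from 0.982 to 0.996 over 8 libraries and from 0.550 to 0.918 without WT replicate 4. None of these 10 is a sarcomere gene.

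A further 72 genes of striated muscle that are no members were listed, of which 69 were in the table and 31 entered the fit. At both thresholds 1 of the 31 was lower in LRP1 eKO libraries, where 0.790% of tested genes were, and 0 were higher, where 0.869% were (limma). By unadjusted p below 0.05, 14 were lower and 7 higher (limma), and the share of all tested genes at that cut was not counted. By adjusted p alone 14 were lower and 6 higher, where 22.2% and 19.0% of tested genes were (limma). The lower genes include Ankrd2, Myoz2 and Pdlim3, which were below 1 in every LRP1 eKO library and entered the fit through the WT libraries alone. Nothing is read from these counts, and Myoz2 and Pdlim3 were named after their values were seen. The median difference of the 31 was -0.09 on the log2(signal + 1) scale. Among all 69, the LRP1 eKO mean was lower for 52. It was below 50% of WT for 27, against 9.39% of the genes above 0 in WT. That share depends on level. It was 26.9% of genes with a WT mean above 0 and below 0.5, 6.44% between 0.5 and 2, and 1.5% at 2 or above. Every LRP1 eKO library was below every WT library for 32 of the 69, against 13.9% of all genes of the table. The groups were apart in the other direction for 7, but the share of all genes apart in that direction was not counted. Of the 69, 38 had a mean signal below 1.

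Ankrd2, a stretch-responsive protein of the I-band and the gene that passed both thresholds, was below 1 in every LRP1 eKO library and so entered the fit through the WT libraries alone. It was at 2.72, 2.17, 1.83 and 4.80 in WT and at 0.244, 0.492, 0.250 and 0.631 in LRP1 eKO replicates 1 to 4. It had 14.0% left, and the log2 difference was -1.42 (limma standard error 0.20, adjusted p = 0.00051), or -0.53 with a pseudocount of 5, which is below the 2-fold threshold. Fitted without the filter, its adjusted p was 0.0081 (limma). Of the metabolic genes, Eno3, muscle enolase, fell by 0.51 on the log2 scale (limma adjusted p = 0.00059) to 68.6% of WT, and Pgam2, muscle phosphoglycerate mutase, fell by 0.59 (limma adjusted p = 0.00045) to 59.8%, both below the 2-fold threshold. Tpm2, beta tropomyosin, which smooth muscle also makes, was at 349 ± 9.76 in WT against 323 ± 6.56 in LRP1 eKO libraries (SD, n = 4), with 92.4% left (limma adjusted p = 0.039, and up to 0.095 in other settings). Des, encoding desmin, which stellate and smooth muscle cells make as well, was at 42.3 ± 4.98 and 44.2 ± 0.854 (SD, n = 4), a difference that did not pass the test (limma adjusted p = 0.47). Without WT replicate 4 the log2 difference of Des was 0.14 in place of 0.07 and passed at an adjusted p of 0.026, and with array weights the adjusted p was 0.044 (limma).

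The 6 genes of this list that were higher at an adjusted p below 0.05 were Ankrd1, Cryab, Fbxo32, Jph1, Jph2 and Tpm1, named after their values were seen. Cryab, a chaperone of many tissues, rose from 1236 ± 18.0 to 1891 ± 114 (SD, n = 4), to 153% of WT (limma adjusted p = 1.5e-05). Ankrd1, a stress-induced nuclear protein, rose from 18.1 ± 0.739 to 30.6 ± 1.12 (SD, n = 4), to 169% of WT (limma adjusted p = 4.2e-06). Cryab and the tropomyosin genes of this list are also made by many other cell types. Summed over the list, the signal was between 2861 and 2974 in WT and between 3577 and 3830 in LRP1 eKO libraries.

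**Figure D5:**
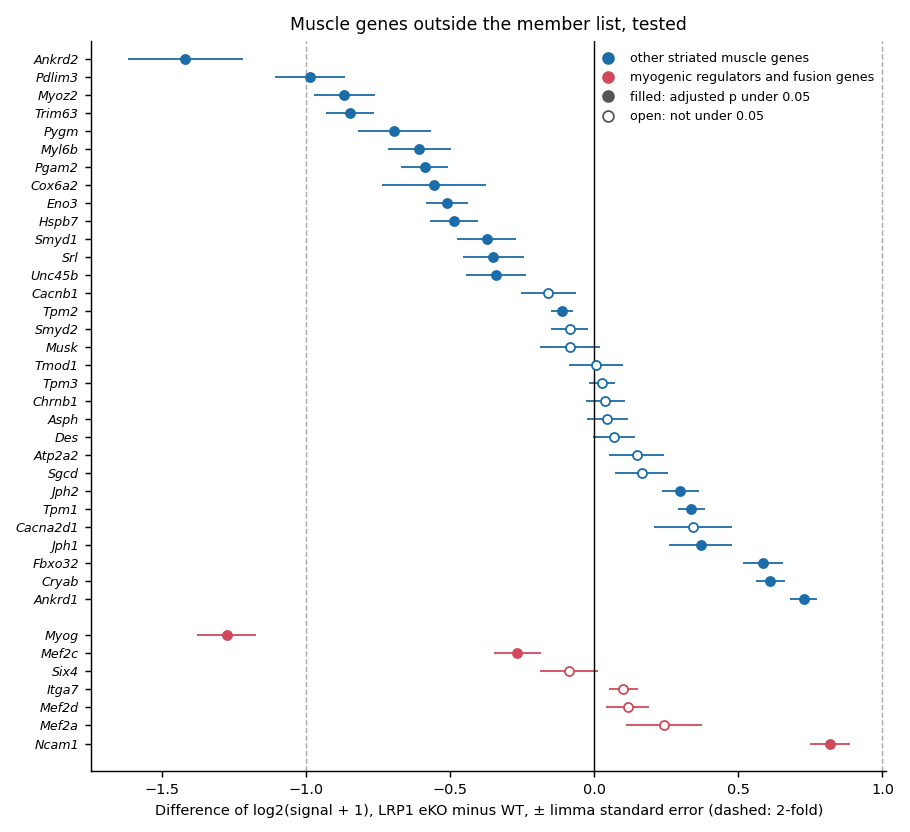
Difference of log2(signal + 1) between LRP1 eKO and WT libraries with its limma standard error (x axis) for 31 other striated muscle genes and 7 myogenic regulators that entered the fit. Filled points have an adjusted p below 0.05, dashed lines mark 2-fold, and Ankrd2 and Myog alone lie beyond the line on the lower side.

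Myogenic regulators, the transcription factors that commit cells to muscle and switch on the sarcomere genes, were also measured. Of 20 listed regulators and fusion genes, 17 were in the table and 7 entered the fit. At both thresholds 1 of the 7 was lower, where 0.790% of tested genes were, and 0 were higher, where 0.869% were (limma). Myog, encoding myogenin, which drives differentiation, was at 2.80, 2.18, 2.07 and 3.23 in WT and at 0.505, 0.458, 0.426 and 0.462 in LRP1 eKO replicates 1 to 4. Every LRP1 eKO library was far below the lowest WT library, and the log2 difference was -1.28 (limma standard error 0.10, adjusted p = 1.4e-05), or -0.47 with a pseudocount of 5, again below 2-fold. Myog too was below 1 in every LRP1 eKO library and entered the fit through the WT libraries alone, and without the filter its adjusted p was 0.00057 (limma). By adjusted p alone, as by unadjusted p below 0.05, 2 regulators were lower, Myog and Mef2c, and 1 was higher, Ncam1, a neural cell adhesion molecule. By adjusted p, 22.2% of all tested genes were lower and 19.0% higher (limma). Mef2c and Ncam1 were named after their values were seen.

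The determination factors were low in both groups and were fitted without the filter on low signals. Myod1 was at 0.268, 0.504, 0.393 and 0.408 in WT and at 0.150, 0.0925, 0.0284 and 0.0828 in LRP1 eKO replicates 1 to 4 (limma adjusted p = 0.0076 without the filter). Myf5 was at 0.302 ± 0.0721 and 0.0401 ± 0.0185 (SD, n = 4; limma adjusted p = 0.0029 without the filter). Myf6 was at 0.256 ± 0.0985 and 0.0535 ± 0.0357 (SD, n = 4; limma adjusted p = 0.028 without the filter). For all 3 the LRP1 eKO libraries were below the WT libraries. Pax7, the marker of satellite cells, the stem cells of muscle, was at 0.0142 ± 0.00791 and 0.00438 ± 0.00465 (SD, n = 4), near the floor of the table, and Mymk and Cdh15 were not analysed here.

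Genes of other cell types were set beside these values. Of 12 hepatocyte genes, 11 had every LRP1 eKO library below every WT library, against 13.9% of all genes of the table. The 6 that entered the fit were all lower at both thresholds, where 0.790% of tested genes were (limma). The 12 genes summed to between 99.7 and 148 in WT and between 35.7 and 47.6 in LRP1 eKO libraries. Alb, encoding albumin, was at 20.8 ± 3.77 and 6.15 ± 0.505 (SD, n = 4), with 29.6% left. The part of this change in the result for the sarcomere genes was not tested. Of 10 liver sinusoidal endothelial genes, 5 entered the fit. At both thresholds 1 of these, Oit3, was higher, where 0.869% of tested genes were, and 0 were lower (limma). At unadjusted p below 0.05, 3 were higher and 0 lower (limma), and the share of all tested genes at that cut was not counted. By adjusted p below 0.05, a stricter cut, 19.0% of all tested genes were higher and 22.2% lower (limma). Oit3 was below 1 in every WT library and so entered the fit through the LRP1 eKO libraries alone. Without the filter its adjusted p was 0.0043 (limma). The 10 genes summed to between 37.9 and 41.4 in WT and between 38.9 and 61.5 in LRP1 eKO libraries. The 11 macrophage genes in the table summed to between 101 and 197 in WT and between 48.8 and 591 in LRP1 eKO libraries, with the lowest sum in LRP1 eKO replicate 2. The 12 stellate cell and fibroblast genes summed to between 2001 and 2312 and between 1757 and 2213. Of the 7 that entered the fit 2 were lower at an adjusted p below 0.05, where 22.2% of tested genes were (limma).

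Muscle of other kinds was covered by further lists. Some heart muscle genes, among them Myh6, Myl2 and Ankrd1, are also in the list of other striated muscle genes and are counted in both. Of 10 smooth muscle genes, 1 was lower and 6 were higher at an adjusted p below 0.05, against 22.2% and 19.0% of tested genes (limma). Of the 6, Myh11 was below 1 in every WT library and entered the fit through the LRP1 eKO libraries alone. The 10 genes summed to between 1640 and 1692 in WT and between 1963 and 2055 in LRP1 eKO libraries. Of 16 heart muscle genes, 12 had a mean signal below 1, among them Myh6, the heavy chain of the atria and the adult mouse ventricle, at 0.0414 in WT and 0.0154 in LRP1 eKO libraries, and Myl2, the ventricular light chain, at 0.0764 and 0.0719. Myl7, the atrial light chain, was at 2.27 and 3.28. The 16 genes summed to between 74.8 and 85.7 in WT and between 80.7 and 84.8 in LRP1 eKO libraries. Most of that sum came from Gja1, at 53.1 in WT and 37.4 in LRP1 eKO libraries, and Ankrd1, at 18.1 and 30.6. These 2 genes moved in opposite directions, and Gja1 was named after its values were seen. Without overlap of the groups, 5 of the 16 were lower, against 13.9% of all genes of the table. In the other direction 3 were higher, and the share of all genes in that direction was not counted.

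Some members share exons with a neighbouring gene on the other strand, from which reads cannot be told apart where strand was not kept. For the 35 members whose exons overlap no other coding gene, the median left was 24.1%.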

How the data were processed

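The mRNA-seq data comprised 4 WT and 4 LRP1 eKO libraries of liver ECs, with genotype and replicate number from the sample labels. The authors deposited a quantile-normalized signal for 22520 coding genes, a step that removes global shifts between libraries. The labels name TopHat2 and Cufflinks on mm10, while the paper's methods describe trimGalore, STAR, featureCounts with GENCODE and edgeR on counts, which were not used here. Depth is unknown, so precision was judged from the spread of 4 libraries per group.

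The design planned limma for a normalized table. On log2(signal + 1), limma 3.58.1 (R 4.3.3, mean-variance trend, genotype only) was fitted over the 11391 genes that reached a signal of 1 in 4 or more of 8 libraries, with Benjamini-Hochberg adjusted p below 0.05 and 2-fold as thresholds. Of 200 genes lowered by 2 on the log2 scale in simulated data of these 11391 genes, 197 were recovered and 0 others called. The lowered genes were drawn only from genes with higher mean signals. The recovery therefore does not describe genes at the low levels of many members, nor smaller differences. The percent left is the ratio of arithmetic means. Members and gene lists were chosen with earlier results of these data known. Named were all members, the called genes of the other muscle and myogenic lists (at most 15 each), 12 further muscle genes, the 10 genes most like the members, Lrp1 and 1 or 2 genes per cell type list, and genes named outside this rule are marked. Gene positions came from GENCODE M21 on GRCm38, 50-base stretches were compared across its transcripts, and promoter windows came from RefSeq (GRCm38.p6). Of the 38 member windows, 30 continued into the beginning of a GENCODE transcript. Python 3.11.15 and matplotlib 3.10.9 drew the figures. Alternatives were pseudocounts of 0.1 and 5, no filter or a mean signal of at least 5, limma without trend, with robust moderation or with array weights, trimmed-mean centring, the replicate number as a block, and leaving out each library.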

Additional observations from a re-analysis of the deposited data

Results flagged for a closer look

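For each member and each named muscle or myogenic gene, the highest or lowest library of a group of 4 was set against the others by its gap to the nearest library over the range of the group (Dixon's ratio) and its 95% critical value. Of 106 groups, 9 exceeded it, where chance gives about 1 in 20, or 5.3. WT replicate 4 was the highest library for Myl1 (ratio 0.916), Tnnt3 (0.867), Tnni2 (0.918) and Tnnc1 (0.939), and the lowest for Trdn (0.861). LRP1 eKO replicate 2 was the highest for Myh2 (0.892), LRP1 eKO replicate 4 the lowest for Tcap (0.857) and Myf6 (0.995, listed at 0), and LRP1 eKO replicate 1 the highest for Chrne (1.00, the other 3 listed at 0).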

How the results depend on the processing

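The number of genes past both thresholds was 189, and it was 315 with a pseudocount of 0.1, 66 with a pseudocount of 5 and 4690 by adjusted p alone, a setting added after seeing the data. Without single libraries it ranged from 175 to 257. The 12 members past both thresholds became 2 with a pseudocount of 5 and 6 with a mean signal of at least 5, where fewer members were tested, and 11 to 12 without single libraries. The median log2 difference of the 40 members was -0.56, against -1.42 (pseudocount 0.1), -0.16 (pseudocount 5), -2.06 (ratio of means) and -0.61 to -0.50 without single libraries, since a pseudocount shrinks low signals. Among other striated muscle genes, the 1 lower gene became 4 (pseudocount 0.1), 0 (pseudocount 5), 2 (no filter, which adds Smpx), 0 (mean signal of at least 5) and 14 (adjusted p alone). It was 1 to 2 without single libraries, with 2 when WT replicate 1, WT replicate 3 or LRP1 eKO replicate 1 was left out. The 0 higher genes became 6 by adjusted p alone. The difference in the developmental share of myosin heavy chain was 3.13 percentage points, 6.06 without Myh7, -5.83 with Myh3 alone as developmental, and 1.78 to 4.48 without single libraries. Of named single genes, Tpm2 no longer passed the adjusted p threshold in some settings (limma adjusted p from 0.016 to 0.095 across settings). Des passed that threshold in others (limma adjusted p from 0.026 to 0.89 across settings). Neither gene passed the fold threshold in any setting, so that neither was called. The replicate numbers were not treated as pairs in the main fit. The correlations of same-numbered libraries' deviations were -0.0856, -0.130, 0.178 and 0.0378, and no WT library correlated best with its own number. With so few libraries these values cannot settle whether the samples were paired. With the replicate number as a block, 192 genes, 12 members and 1 lower and 0 higher other muscle genes passed, and the median difference was -0.56. Depth is unknown, and signals far below 1 may rest on few reads.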
